A study of Mus musculus with 161 samples.

Results

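The Ms4a genes Ms4a4c, Ms4a6b, Ms4a6c, Ms4a6d and Ms4a7, members of one family of membrane proteins, were followed through polarization of mouse macrophages. They were chosen by name and are 5 of the 8307 genes in the bulk RNA table. Chromatin around them was taken as every accessible site whose centre lay within 50 kb of one of their 9 annotated start sites, which gave 54 of 150203 sites. The 5 genes lie together on chromosome 19 of the mouse genome (build GRCm38): Ms4a7 at chr19:11321039-11336146 on the minus strand, Ms4a4c at chr19:11404770-11427246, Ms4a6c at chr19:11469366-11482192 and Ms4a6b at chr19:11516512-11531256 on the plus strand, and Ms4a6d at chr19:11586604-11604849 on the minus strand. The windows around them cover 370 kb and also reach 8 other protein-coding genes, among them Ms4a14, Ms4a4a, Ms4a4b, Ms4a4d, Ms4a2 and Ms4a3.

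The cells were bone marrow-derived macrophages (BMDMs), grown from femur marrow of C57BL/6J mice aged 6 to 10 weeks in RPMI-1640 with 20% horse serum and 20 ng/mL of macrophage colony-stimulating factor (MCSF), which every group received as base medium. From day 7, M1 cultures received 100 ng/mL lipopolysaccharide (LPS) with 25 ng/mL interferon-γ (IFN-γ), M2 cultures 25 ng/mL interleukin-4 (IL-4), and M0 cultures base medium alone. After 24 h some M1 and M2 cultures were washed with PBS and given base medium (M1→M0, M2→M0) or the opposite stimulus (M1→M2, M2→M1) for up to 72 h, while others stayed in their stimulus to 48 or 96 h. Bulk RNA was profiled in 48 conditions, single cells in 7 libraries (0 h M0, and M1, M2 and M0 at 6 and 24 h, 1 library each), and chromatin accessibility (ATAC-seq) in 3 libraries each of M1→M0 72 h after the wash, 24 h M1 and 0 h M0. Of the 48 bulk conditions 45 had 3 libraries. Replicates are called biological in the labels, but no separate mice or cultures are named for them, so p-values measure only the spread between these samples.

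MS4A proteins cross the cell membrane several times and keep both ends inside the cell. Family members are known as signalling partners of immune receptors: MS4A1 is the B cell antigen CD20, and MS4A2 is a subunit of the mast cell receptor for IgE. In macrophages, MS4A4A is known to associate with the fungal sugar receptor dectin-1 (Clec7a), and mouse MS4A6D with the receptor VSIG4. Mouse Ms4a6b, Ms4a6c and Ms4a6d are close copies of one another related to human MS4A6A, which lies with MS4A4A at a risk locus for Alzheimer's disease linked to soluble TREM2, and Ms4a7 is a widely used marker of tissue macrophages.

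The start regions of the members are shown for the likeness of the copies and for the interferon-type letters they hold. RefSeq (GRCm38.p6) promoters, 250 bases before to 50 after a start, were found for Ms4a7 (chr19:11336097-11336396, minus strand), Ms4a6b (chr19:11518309-11518608, plus strand), Ms4a6c (chr19:11469118-11469417, plus strand) and Ms4a4c (chr19:11407411-11407710, plus strand). Capitals mark matches on either strand to GAAANNGAA, the core of the interferon-stimulated response element (ISRE), which interferon regulatory factors bind.
Ms4a6b: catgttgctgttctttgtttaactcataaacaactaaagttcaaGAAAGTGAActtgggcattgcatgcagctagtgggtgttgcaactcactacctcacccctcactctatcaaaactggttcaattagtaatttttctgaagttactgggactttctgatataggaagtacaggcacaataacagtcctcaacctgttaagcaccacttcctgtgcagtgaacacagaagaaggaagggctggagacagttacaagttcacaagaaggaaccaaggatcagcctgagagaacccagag
Ms4a6c: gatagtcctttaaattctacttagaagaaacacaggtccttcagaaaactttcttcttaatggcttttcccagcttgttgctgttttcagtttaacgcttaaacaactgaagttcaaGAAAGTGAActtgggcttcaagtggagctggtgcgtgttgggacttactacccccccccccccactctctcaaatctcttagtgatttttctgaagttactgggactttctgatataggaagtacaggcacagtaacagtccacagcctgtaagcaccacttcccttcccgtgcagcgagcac
Ms4a4c: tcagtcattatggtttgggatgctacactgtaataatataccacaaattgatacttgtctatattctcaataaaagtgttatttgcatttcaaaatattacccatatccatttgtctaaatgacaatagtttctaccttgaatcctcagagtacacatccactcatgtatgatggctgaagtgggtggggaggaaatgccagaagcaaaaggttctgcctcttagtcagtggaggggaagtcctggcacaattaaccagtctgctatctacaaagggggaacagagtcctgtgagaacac
Ms4a7: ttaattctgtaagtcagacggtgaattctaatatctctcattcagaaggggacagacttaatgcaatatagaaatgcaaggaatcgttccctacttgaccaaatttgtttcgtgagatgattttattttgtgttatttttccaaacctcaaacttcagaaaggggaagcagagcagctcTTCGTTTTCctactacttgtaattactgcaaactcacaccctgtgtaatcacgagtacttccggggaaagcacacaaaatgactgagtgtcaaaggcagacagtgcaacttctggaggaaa
The Ms4a6b and Ms4a6c promoters aligned over 218 columns with 86.2% identity, and both carried the same letters, GAAAGTGAA, 206 to 198 bases before the Ms4a6b start and 133 to 125 bases before the Ms4a6c start. The capitals of Ms4a7, 71 to 63 bases before its start, are an ISRE core read on the other strand. No such letters were in the Ms4a4c window. The ISRE core is in 8.56% of the 32851 RefSeq promoters of this length. Of the other letters searched, the PU.1 type AGGAAGT was in the Ms4a6b and Ms4a6c windows and the STAT6 type TTCNNNNGAA in those of Ms4a6b and Ms4a7. The AP-1 type TGANTCA and the GAS type TTCNNNGAA were in none of the 4 shown. RefSeq gives a second Ms4a7 promoter (chr19:11334646-11334945, minus strand), not printed, which holds an ISRE core of its own, GAAAAGGAA, 148 to 140 bases before its start, and an AP-1 type match, TGATTCA.

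The members rose or fell with the stimulus in bulk RNA. At 24 h, 4 of the 5 were higher in M1 than in M0 macrophages and 4 of the 5 were lower in M2 than in M0, and the exceptions differed: Ms4a7 in M1 and Ms4a6d in M2. Values are FPKM (fragments scaled to transcript length and library size), given per library in the order of the replicate numbers, and fold changes are differences of log2(FPKM + 1) from a limma model across all genes, called at a Benjamini-Hochberg adjusted p below 0.05. In bulk RNA, fewer cells expressing a gene and less RNA per cell cannot be told apart.

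**Figure D1:**
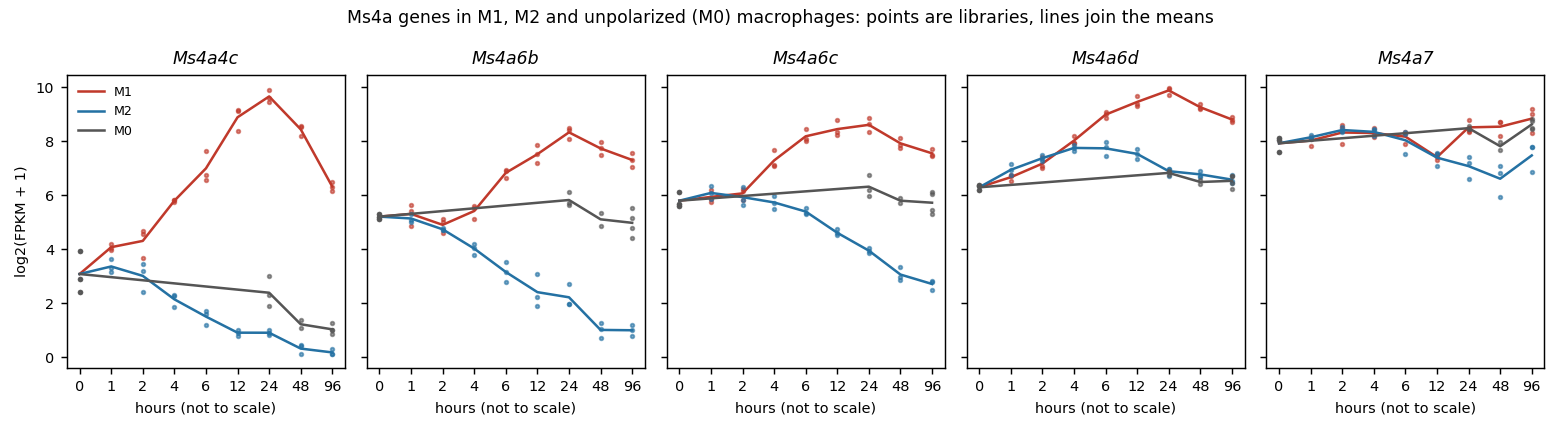
Bulk RNA of the 5 members over time, 1 panel per gene, with log2(FPKM + 1) against hours since the stimulus. Points are libraries and lines join the means of M1, M2 and M0 cultures. Ms4a4c, Ms4a6b, Ms4a6c and Ms4a6d stood highest at 24 h in M1, and Ms4a7 in M1 ended at 315 to 578 FPKM at 96 h.

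Ms4a4c had 956, 704 and 777 FPKM in 24 h M1, 0.992, 0.882 and 0.769 FPKM in 24 h M2, and 3.90, 6.96 and 2.70 FPKM in 24 h M0 macrophages. The 3 states did not overlap. The M1 difference from M0 was 7.27 on the log2 scale (SE 0.30, adjusted p = 2e-41), and the M2 difference was -1.48 (SE 0.30, adjusted p = 3.5e-05). The M2 value is compressed by the added 1 FPKM, since M2 libraries were below that level.

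Ms4a6b had 362, 266 and 341 FPKM in 24 h M1, 2.95, 2.93 and 5.54 FPKM in 24 h M2, and 68.3, 51.2 and 49.1 FPKM in 24 h M0. It therefore moved furthest of the members in M2, by -3.60 (SE 0.27, adjusted p = 2.1e-21), and by 2.50 in M1 (SE 0.27, adjusted p = 4.2e-14). Its close copy Ms4a6c had 460, 321 and 396 FPKM in 24 h M1, 15.7, 14.1 and 13.5 FPKM in 24 h M2, and 107, 73.1 and 62.2 FPKM in 24 h M0. Neither gene overlapped between states, and Ms4a6c differed from M0 by 2.29 in M1 (SE 0.21, adjusted p = 1.9e-17) and by -2.37 in M2 (SE 0.21, adjusted p = 3.9e-17).

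Ms4a6d was the most abundant member in 24 h M1, with 1005, 845 and 981 FPKM in 24 h M1, against 118, 114 and 105 FPKM in 24 h M0. The difference was 3.05 (SE 0.14, adjusted p = 6.9e-37). In 24 h M2 it had 104, 124 and 126 FPKM, which overlapped M0 (0.06, 95% interval -0.22 to 0.35, adjusted p = 0.77).

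Ms4a7 was called in M2 alone. It had 327, 335 and 440 FPKM in 24 h M1, against 350, 345 and 375 FPKM in 24 h M0, and these overlapped (0.03, 95% interval -0.52 to 0.58, adjusted p = 0.94). In 24 h M2 it had 96.3, 171 and 146 FPKM, each below every M0 library, a difference of -1.41 (SE 0.28, adjusted p = 1.8e-05).

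Across the table, 35.4% of genes rose and 25.2% fell in 24 h M1 against 24 h M0, and 18.5% rose and 15.1% fell in 24 h M2 against 24 h M0. The median of the 5 members was 2.50 in the M1 comparison, where the median of all genes was 0.10 (-0.02 once the median of each library was subtracted), and -1.48 in the M2 comparison, where it was 0.02. Set directly against each other, all 5 members were higher in 24 h M1 than in 24 h M2, by 8.75 for Ms4a4c, 6.11 for Ms4a6b, 4.66 for Ms4a6c, 2.99 for Ms4a6d and 1.43 for Ms4a7. In that comparison 36.4% of genes were higher and 30% lower in M1.

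The members were first called at different times, and no difference in timing between them was tested. Against 0 h M0, 28 of 40 tests over the M1 course (5 genes at 8 times) were called, each of them higher, where 30.4% of all such tests rose and 22% fell. Ms4a4c was higher from 1 h, when it had 15.6, 14.8 and 17.3 FPKM, against 14.2, 4.36 and 6.47 FPKM at 0 h (0.99, SE 0.30, adjusted p = 0.031). Ms4a6d was called from 2 h (0.88, SE 0.14), Ms4a6c from 4 h (1.49, SE 0.21) and Ms4a6b from 6 h (1.62, SE 0.27). At 1 h, where it was not called, Ms4a6d had 92.1 to 107 FPKM, above the 71.4 to 81.3 FPKM of 0 h. At 2 h the Ms4a4c call held although its libraries (11.9, 24.6 and 22.5 FPKM) overlapped those of 0 h. No bulk M0 library was taken between 0 h and 24 h. In earlier differences of M1 or M2 from 0 h M0, stimulus and time in culture therefore cannot be told apart. Ms4a6d also rose early in M2, with 106 to 142 FPKM at 1 h and 155 to 180 FPKM at 2 h.

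All 4 of these genes were highest at 24 h, at 6.57 for Ms4a4c, 3.59 for Ms4a6d, 3.12 for Ms4a6b and 2.81 for Ms4a6c above 0 h M0, and were lower again by 96 h under continued LPS and IFN-γ. Ms4a4c then had 69.4, 89.5 and 78.4 FPKM, still 3.23 above 0 h M0. Ms4a7 took another course. At 12 h of M1 it had 157, 181 and 170 FPKM, below each of the 0 h libraries (194, 264 and 275 FPKM), but the difference did not pass (-0.51, adjusted p = 0.095). It was called higher only at 48 h (0.61, adjusted p = 0.046) and 96 h (0.91, adjusted p = 0.0033), when it had 315, 578 and 520 FPKM. These calls are against 0 h M0. Time-matched M0 cultures had 202 to 248 FPKM at 48 h, below the 294 to 417 FPKM of 48 h M1. At 96 h M0 had 350 to 448 FPKM and overlapped M1, with a difference of 0.21.

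In the M2 course 7 of 40 tests rose and 18 fell, where 18.6% and 14% of all such tests did. All 7 that rose were of Ms4a6d, from 1 to 48 h, with the highest value at 4 h, when it had 232, 213 and 200 FPKM, against 81.3, 79.8 and 71.4 FPKM at 0 h (1.46, SE 0.14, adjusted p = 3.2e-15). Against 0 h M0 its 24 h M2 level was thus called higher (0.60), unlike against 24 h M0. Ms4a4c and Ms4a6b were called lower from 4 h (-0.94 and -1.18) and Ms4a6c from 12 h (-1.19). By 96 h of IL-4 they were down to 0.0845 to 0.224 FPKM for Ms4a4c, 0.737 to 1.30 FPKM for Ms4a6b and 4.67 to 6.15 FPKM for Ms4a6c. Ms4a7 was lower at 24 h (-0.85) and 48 h (-1.31), with 59.4, 134 and 113 FPKM at 48 h, but at 96 h it had 116, 219 and 217 FPKM and overlapped the 0 h libraries.

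Ms4a4c fell with time in base medium. It had 1.02, 1.39, 0.822 and 1.00 FPKM in the 4 libraries of 96 h M0, each below every library of 0 h M0 (14.2, 4.36 and 6.47 FPKM), a difference of -2.05 (SE 0.28, adjusted p = 1.9e-08). In the fit over all conditions it was the only member called, where 6.75% of genes rose and 6.9% fell. Ms4a7 had 427, 448, 355 and 350 FPKM in 96 h M0, against 194, 264 and 275 FPKM in 0 h M0, which did not overlap but missed the threshold (0.70, adjusted p = 0.055). It was called with replicate number as a block (0.66, adjusted p = 0.019), with the median of each library subtracted (adjusted p = 0.041), without the libraries numbered 1 (0.50, adjusted p = 0.0056) and in a fit of the 2 groups alone (adjusted p = 0.036). Markers of other marrow cells moved in the same comparison: all 9 measured neutrophil genes were lower (summed 8.94 to 18.9 FPKM in 96 h M0, against 976 to 2716 FPKM in 0 h M0), as were all 6 monocyte genes (10.2 to 18.1 against 125 to 255 FPKM). Their part in the difference was not tested.

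**Figure D2:**
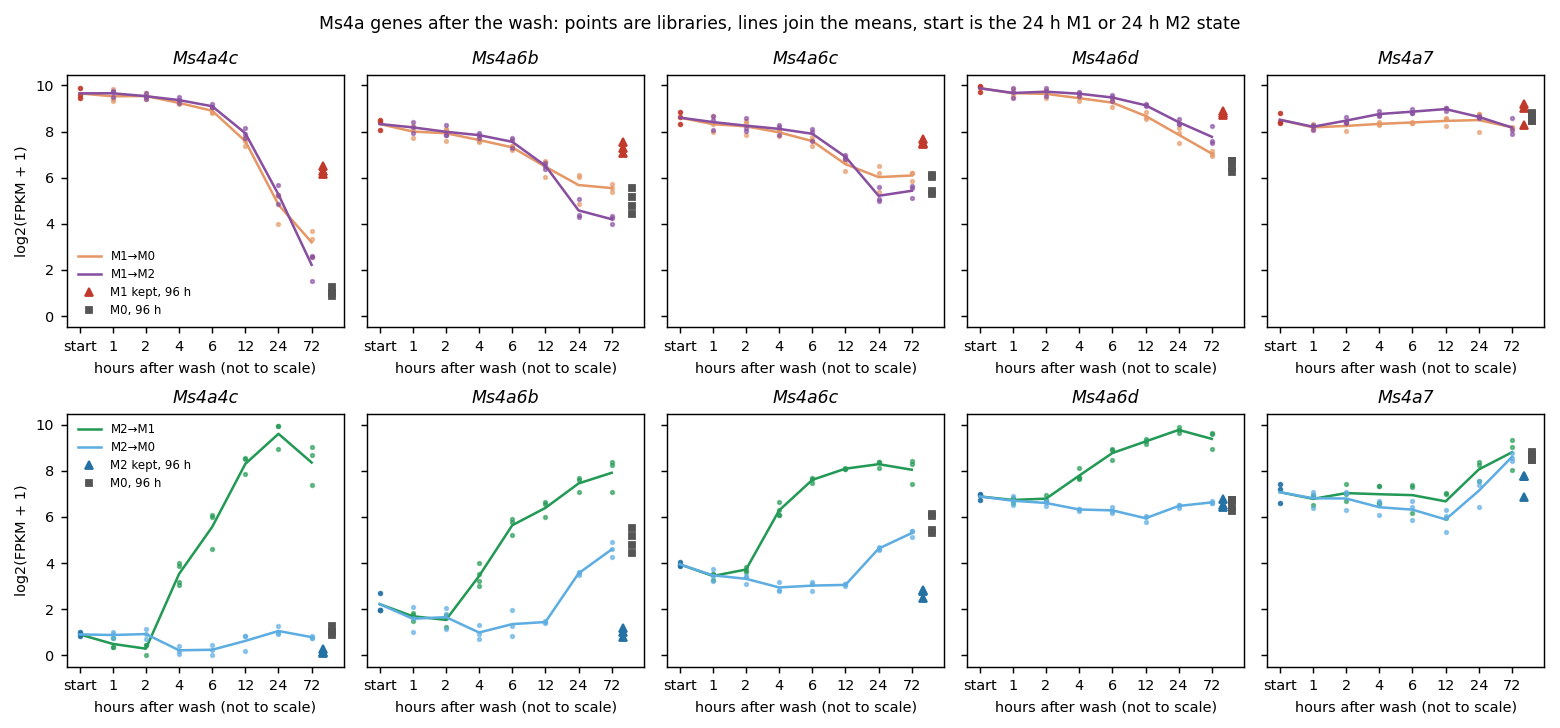
Bulk RNA of the 5 members after the wash, with log2(FPKM + 1) against hours since the wash. The top row shows M1→M0 and M1→M2 with M1 kept in its stimulus and M0 at 96 h, and the bottom row M2→M1 and M2→M0 with M2 kept and M0. Points are libraries and lines join means. Ms4a4c in M1→M0 ended at 4.94 to 11.8 FPKM, above the 0.822 to 1.39 FPKM of 96 h M0. This was within the 4.36 to 14.2 FPKM of 0 h M0, which is not drawn.

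Removal of LPS and IFN-γ was followed by a fall of the 4 genes that had risen in M1, and Ms4a4c and Ms4a6d were still called higher than time-matched M0 cells after 72 h. Over the M1→M0 course, 18 of 35 tests against 24 h M1 fell, where 13% of all such tests rose and 14.9% fell. Ms4a6c and Ms4a6d were lower from 4 h after the wash (-0.64 and -0.43), and Ms4a4c and Ms4a6b from 6 h (-0.75 and -1.01). Ms4a7 was called at none of the 7 times.

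At 72 h after the wash Ms4a4c had 4.94, 9.23 and 11.8 FPKM in M1→M0, against 69.4, 89.5 and 78.4 FPKM in M1 kept in stimulus for 96 h and 1.02, 1.39, 0.822 and 1.00 FPKM in 96 h M0. These groups did not overlap, and M1→M0 lay 3.12 below kept M1 (value -3.12, SE 0.30, adjusted p = 7.6e-16) and 2.17 above M0 (SE 0.28, adjusted p = 1.1e-09). Ms4a6d had 142, 120 and 131 FPKM in M1→M0, against 418, 444 and 478 FPKM in kept M1 and 105, 105, 86.0 and 74.7 FPKM in 96 h M0. It too lay between, at -1.76 from kept M1 (adjusted p = 1.3e-19) and 0.51 from M0 (SE 0.13, adjusted p = 0.0033). Beside 0 h M0 the picture differed. Ms4a4c in M1→M0 lay within the 4.36 to 14.2 FPKM of 0 h M0, from which 96 h M0 had fallen. Ms4a6d lay above the 71.4 to 81.3 FPKM of 0 h M0. M1→M0 was not tested against 0 h M0.

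Ms4a6b had 40.2, 45.9 and 52.3 FPKM in M1→M0, against 131, 156 and 189 FPKM in kept M1 and 45.5, 35.01, 26.5 and 20.4 FPKM in 96 h M0. It was lower than kept M1 (-1.75, adjusted p = 4.2e-08) and overlapped M0 (0.57, 95% interval 0.07 to 1.07, adjusted p = 0.11). Without replicate 1 of 96 h M0, its highest library, that difference was 0.76 and was called (adjusted p = 0.040). Ms4a6c had 73.2, 57.5 and 72.7 FPKM in M1→M0, against 180, 175 and 206 FPKM in kept M1 and 68.5, 65.2, 42.3 and 38.0 FPKM in 96 h M0, which gave -1.46 (adjusted p = 6.9e-09) and 0.37 (95% interval -0.02 to 0.76, adjusted p = 0.20).

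Ms4a7 had 295, 287 and 288 FPKM in M1→M0, against 315, 578 and 520 FPKM in kept M1 and 427, 448, 355 and 350 FPKM in 96 h M0. It lay below both groups in every library. The difference from kept M1 was called at the edge of the threshold (-0.65, adjusted p = 0.048), and that from M0 was not (-0.44, 95% interval -0.95 to 0.07, adjusted p = 0.27), although it was in a fit of the 2 groups alone (adjusted p = 0.025) and without the libraries numbered 1 (-0.41, adjusted p = 0.019). The call against kept M1 was lost with library medians subtracted (-0.58, adjusted p = 0.065), in the 2 groups alone (adjusted p = 0.085), without any single M1→M0 library (-0.66, -0.64 and -0.65 without replicate 1, 2 and 3) and without replicate 2 (-0.48) or 3 (-0.56) of kept M1.

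All 5 members were thus lower in M1→M0 than in kept M1, where 19.4% of genes were higher and 22.8% lower, and 2 of 5 were higher in M1→M0 than in 96 h M0, where 10.7% of genes were higher and 7.19% lower. Once the median of each library was subtracted, the calls over all genes in the comparison with 96 h M0 moved from 891 higher and 597 lower to 692 higher and 841 lower. The 10 cycling genes were all higher in M1→M0 than in kept M1 (summed 70.0 to 472 FPKM against 11.9 to 40.4 FPKM), and their part in these differences was not tested. Against 96 h M0, both fibroblast genes were lower in M1→M0 (summed 0.296 to 0.941 against 18.2 to 128 FPKM), as were the B cell gene (0.882 to 1.57 against 56.0 to 79.9 FPKM), 2 of 6 monocyte genes (0.776 to 2.38 against 10.2 to 18.1 FPKM) and 2 of 9 neutrophil genes (4.26 to 11.9 against 8.94 to 18.9 FPKM), and 1 of 10 cycling genes was higher. The part of these cells was not tested either.

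After IL-4 was removed, Ms4a6b, Ms4a6c and Ms4a7 rose, but only after a further fall. Over the M2→M0 course 5 of 35 tests against 24 h M2 rose and 11 fell, where 6.22% and 6.8% of all such tests did. Without replicate 3 of each condition the calls were 4 that rose and 4 that fell. Ms4a6b was lower at 4 h after the wash (-1.23, adjusted p = 0.00063), when it had 0.621, 0.917 and 1.52 FPKM, against 2.95, 2.93 and 5.54 FPKM in 24 h M2. At 24 h it had 10.8, 11.2 and 10.3 FPKM and at 72 h 23.4, 28.8 and 18.4 FPKM, both called higher (1.34 and 2.37). Ms4a6c followed the same course, with calls of -1.003 (4 h), 0.68 (24 h) and 1.36 (72 h) on the log2 scale.

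Ms4a7 reached its lowest level of all 48 conditions in this course, 39.4, 79.0 and 64.0 FPKM at 12 h after the wash (-1.18 against 24 h M2, adjusted p = 0.00097). At 72 h it had 379, 442 and 348 FPKM, 1.53 above 24 h M2 (adjusted p = 4e-06). Ms4a6d was lower from 4 to 24 h, with 54.2, 65.1 and 63.3 FPKM at 12 h (-0.94, adjusted p = 2.3e-07), and was not called at 72 h (96.7, 101 and 97.2 FPKM). Ms4a4c was called at no time and stayed between 0.0117 and 1.45 FPKM.

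Compared with M2 kept in IL-4 for 96 h, 3 of 5 members were higher at 72 h in M2→M0, where 10.6% of genes were higher and 13% lower. Ms4a6b differed by 3.59 (adjusted p = 2.2e-21), Ms4a6c by 2.59 (adjusted p = 2.5e-19) and Ms4a7 by 1.13 (adjusted p = 0.00083). Ms4a4c had 0.811, 0.702 and 0.677 FPKM in M2→M0, against 0.0964, 0.224 and 0.0845 FPKM in kept M2. These did not overlap but gave only 0.61 with 1 FPKM added (adjusted p = 0.14), and 1.87 with 0.1 FPKM added, which was called (adjusted p = 0.00027), as was 0.61 in a fit of the 2 groups alone (adjusted p = 0.0038).

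Set against 96 h M0, no member was called by limma in M2→M0 at 72 h, and 1 had an unadjusted p below 0.05, Ms4a6c (-0.42, adjusted p = 0.72). In that comparison 0.253% of genes were higher and 0.12% lower. Its 95% intervals ran from -0.80 to 0.31 for Ms4a4c, -0.89 to 0.12 for Ms4a6b, -0.17 to 0.37 for Ms4a6d and -0.53 to 0.49 for Ms4a7.

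When LPS and IFN-γ followed IL-4, all 5 members rose. Over the M2→M1 course 22 of 35 tests against 24 h M2 rose and 1 fell, where 28.2% and 23.8% of all such tests did. The 1 that fell was Ms4a6b at 2 h (-0.68, adjusted p = 0.039). From 4 h Ms4a4c (2.62), Ms4a6c (2.34), Ms4a6b (1.22) and Ms4a6d (0.91) were all higher, and Ms4a7 at 24 h (0.98) and 72 h (1.73). Ms4a7 rose in M2→M0 as well, and the 2 courses overlapped. At 24 h it had 186 to 335 FPKM in M2→M1 and 85.4 to 190 FPKM in M2→M0. At 72 h it had 261 to 642 and 348 to 442 FPKM in that order. The part of IL-4 removal and time in its rise was not tested.

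At 24 h in the second stimulus Ms4a6b had 133, 196 and 203 FPKM in M2→M1, against 362, 266 and 341 FPKM in 24 h M1 that had not seen IL-4. These did not overlap (-0.87, SE 0.27, adjusted p = 0.014). It was the only member called in this comparison, which was added after the values were seen and in which 11.5% of genes were higher and 7.43% lower. The call was lost in a fit of the 2 groups alone (adjusted p = 0.063), without replicate 1 of M2→M1 (-0.68) and without replicate 1 (-0.79) or 3 (-0.83) of 24 h M1. Ms4a4c had 487, 984 and 984 FPKM in M2→M1, which overlapped the 704 to 956 FPKM of 24 h M1 (-0.05, 95% interval -0.65 to 0.55). M2→M1 was here at 48 h in total and 24 h M1 at 24 h, and the part of that time was not tested.

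At 72 h Ms4a4c had 166, 518 and 409 FPKM in M2→M1, against 69.4, 89.5 and 78.4 FPKM in M1 kept for 96 h, and every M2→M1 library was higher (2.04, SE 0.30, adjusted p = 1.7e-07). Ms4a6d had 493, 767 and 788 FPKM, against 418, 444 and 478 FPKM, again without overlap (0.58, SE 0.14, adjusted p = 0.0027). The cells of M2→M1 had spent 72 h in LPS and IFN-γ, and those of kept M1 96 h. These were the 2 of 5 members called, where 7.32% of genes were higher and 4.71% lower. Both calls were lost in a fit of the 2 groups alone (adjusted p = 0.11 for Ms4a4c and 0.25 for Ms4a6d).

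Replicate 1 of M2→M1 was the lowest library for all 5 members. Without it Ms4a6b (1.02 in place of 0.61) and Ms4a6c (0.80 in place of 0.50) were called too, while without replicate 2 or 3 Ms4a6d was not (0.48 and 0.46). Ms4a7 had 261, 642 and 529 FPKM in M2→M1, against 315, 578 and 520 FPKM in kept M1 (-0.03, 95% interval -0.58 to 0.51).

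When IL-4 followed LPS and IFN-γ, the same 4 genes fell, but not to the levels of cells given IL-4 alone. Over the M1→M2 course 15 of 35 tests against 24 h M1 fell, where 15% of all such tests rose and 14.5% fell. Ms4a6b, Ms4a6c and Ms4a6d were lower from 6 h (-0.77, -0.70 and -0.40) and Ms4a4c from 12 h (-1.73). The 4 genes fell in M1→M0 as well. At 24 h after the wash Ms4a4c had 27.9 to 50.9 FPKM in M1→M2 and 15.0 to 37.2 FPKM in M1→M0. In that order Ms4a6b had 18.5 to 32.6 and 28.4 to 68.7 FPKM, and Ms4a6c 30.6 to 47.5 and 40.1 to 90.7 FPKM. Ms4a6d had 321 to 372 FPKM in M1→M2 and 179 to 288 FPKM in M1→M0, without overlap. The part of IL-4 in the fall was not tested. Ms4a7 had 515, 513 and 478 FPKM at 12 h, above each of the 24 h M1 libraries (327, 335 and 440 FPKM), but was called at no time (0.46, adjusted p = 0.17).

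At 24 h after the wash all 5 members were higher in M1→M2 than in 24 h M2, in a comparison also added after the values were seen. M1→M2 was then at 48 h in total and 24 h M2 at 24 h, and the part of that time was not tested. Ms4a4c had 27.9, 37.2 and 50.9 FPKM in M1→M2, against 0.769 to 0.992 FPKM in 24 h M2 (4.36), and Ms4a6d 321, 325 and 372 FPKM, against 104 to 126 FPKM (1.52). Ms4a6b differed by 2.36, Ms4a7 by 1.56 and Ms4a6c by 1.27, and no group overlapped. Here 32% of genes were higher and 21.9% lower, with a median over all genes of 0.11. Subtracting the median of each library moved that median to -0.0022 and the calls from 2657 higher and 1820 lower to 2044 higher and 2293 lower. In the same comparison all 10 cycling genes were lower in M1→M2 (summed 15.0 to 17.1 against 263 to 365 FPKM), as were 8 of 9 neutrophil genes (2.23 to 5.02 against 17.0 to 306 FPKM), 3 of 6 monocyte genes (3.23 to 5.73 against 12.5 to 18.3 FPKM), 1 of 2 fibroblast genes and the B cell gene (0.148 to 0.348 against 12.7 to 17.2 FPKM), and their part in it was not tested.

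At 72 h 4 of the 5 were still higher in M1→M2 than in M2 kept for 96 h, where 11.8% of genes were higher and 9.76% lower. The cells of M1→M2 had spent 72 h in IL-4, and those of kept M2 96 h. Under IL-4 alone Ms4a6c went from 13.5 to 15.7 FPKM at 24 h to 4.67 to 6.15 FPKM at 96 h. The part of the unequal exposure was not tested. Ms4a6b had 15.0, 18.0 and 19.4 FPKM in M1→M2, against 1.01, 1.30 and 0.737 FPKM in kept M2 (3.20, SE 0.27, adjusted p = 2.4e-18). Ms4a6c had 48.9, 33.7 and 45.5 FPKM, against 5.97, 4.67 and 6.15 FPKM (2.72, adjusted p = 1.5e-20). Neither overlapped, nor did Ms4a4c (2.04, adjusted p = 3.1e-08) or Ms4a6d (1.20, adjusted p = 3.5e-11).

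Ms4a7 had 381, 265 and 237 FPKM in M1→M2, against 116, 219 and 217 FPKM in kept M2, and every M1→M2 library was higher. The difference of 0.70 did not pass (adjusted p = 0.055), and did with replicate number as a block (adjusted p = 0.011). It was also called without replicate 3 of M1→M2 (0.84) and without replicate 2 (0.86) or 3 (0.85) of kept M2.

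Over the means of the 48 conditions, Ms4a6b and Ms4a6c were the most alike pair (Pearson r = 0.97), followed by Ms4a4c and Ms4a6d (0.95), and r between Ms4a7 and the other members ran from 0.52 to 0.74. These are descriptions over conditions that share libraries and time courses. Among all genes, those with the highest r were Ly6a, Aoah and Lgals3bp for Ms4a4c (0.98, 0.97 and 0.97), Mpeg1, Fcgr1 and Vav1 for Ms4a6b (0.97, 0.97 and 0.95), and Fcgr1, Ifitm3 and Aoah for Ms4a6c (0.97, 0.96 and 0.95). For Ms4a6d they were Bst2, Mocs2 and H2-T24 (0.97, 0.96 and 0.96). For Ms4a7 no gene passed 0.86, which was the value of Supt5, followed by Itm2b (0.84) and Clec4a1 (0.83).

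Other genes of the family and its partners moved in both directions. Of 17 further family members and relatives, 3 were in the bulk table. Tmem176b, a relative with a similar membrane topology, averaged 4.56 ± 2.15 FPKM in 24 h M1, 20.4 ± 9.63 FPKM in 24 h M2 and 79.5 ± 19.1 FPKM in 24 h M0 (SD, n = 3 each), and was lower in both stimuli (-3.91 and -1.97). Its neighbour Tmem176a was lower too (-2.01 and -1.37). Both were still lower in M1→M0 at 72 h than in 96 h M0 (-3.17 and -3.58). Ms4a8a averaged 1.47 FPKM in 24 h M1, against 0.527 FPKM in 24 h M0 (0.68, adjusted p = 0.040).

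Of 8 partner and signalling genes 7 were measured, and in 24 h M1 against 24 h M0, 3 rose and 3 fell. Fcgr1, the high-affinity receptor for IgG, averaged 531 ± 46.4 FPKM in M1 and 36.4 ± 3.59 FPKM in M0 (3.83), and its signalling chain Fcer1g (1.21) and the kinase Syk (0.56) rose as well. Trem2, a lipid receptor, fell to 271 ± 69.3 FPKM in M1, against 852 ± 126 FPKM in M0 (-1.67), as did its adaptor Tyrobp (-0.67) and Clec7a (-0.88), while Card9, which relays the dectin-1 signal, had a difference of 0.02 (adjusted p = 0.96). In 24 h M2, Clec7a rose (1.35, 480 ± 71.0 against 189 ± 41.6 FPKM) and Fcgr1 fell (-2.54).

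The members can be set beside 31 genes that interferons induce. All 31 were higher in 24 h M1 than in 24 h M0, with a median of 6.38, where that of the members was 2.50. In 24 h M2 16 of them were lower than in M0 (median -0.67). In M1→M0 at 72 h, 30 were lower than in kept M1 (median -2.30) and 27 still higher than in 96 h M0 (median 1.75), among them Irf7 (3.98), where the median of the 5 members was 0.51.

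The macrophage markers Csf1r, Cd68, Itgam, Mertk and Fcgr1 were measured, with a summed level of 1786 to 2246 FPKM in 24 h M1 and 1889 to 2238 FPKM in 24 h M0, and Adgre1 was not in the table. Of these 5, Fcgr1, Itgam and Mertk were higher in M1 and Csf1r, the receptor for MCSF, was lower (217 ± 10.7 FPKM in M1 and 555 ± 71.1 FPKM in M0, SD, n = 3 each). Other marks of the cultures differed in that comparison. All 10 cycling genes were lower in M1 (summed 20.2 to 28.5 FPKM against 418 to 453 FPKM in M0), 7 of 9 neutrophil genes were lower (20.7 to 40.0 against 21.8 to 314 FPKM), and of 6 monocyte genes 4 were higher and 2 lower (61.7 to 68.1 against 29.1 to 35.9 FPKM). The 1 B cell gene measured was lower (0.466 to 1.16 against 65.1 to 90.9 FPKM), no dendritic or mast cell gene was in the table, and the part of these cells in the differences was not tested. In 24 h M2 against 24 h M0, 3 of 5 macrophage genes, 2 of 6 monocyte genes (12.5 to 18.3 against 29.1 to 35.9 FPKM), 1 of 10 cycling genes and the B cell gene (12.7 to 17.2 against 65.1 to 90.9 FPKM) were lower. In M2→M0 at 72 h against kept M2, 3 of 5 macrophage, 2 of 6 monocyte, 1 of 2 fibroblast, 2 of 9 neutrophil and 4 of 10 cycling genes and the B cell gene were higher, and in M2→M1 at 24 h against 24 h M1, 3 of 6 monocyte genes were lower and 1 higher. Replicate 1 stood apart for some members: it was the lowest library for Ms4a7 in 31 of 48 conditions (mean difference -0.35) and for Ms4a6b in 26 (-0.19).

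The copies limit how well reads can be told apart. Of all 35-base windows of the main transcript, 20.5% of Ms4a6c, 17.2% of Ms4a6b, 14.6% of Ms4a4c and 5.56% of Ms4a6d also occur in another gene, chiefly in each other for the Ms4a6 genes and in Ms4a4b for Ms4a4c (11.9%), and no window of Ms4a7 does. How such reads were shared between copies was not tested.

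In single cells Ms4a4c, Ms4a6b, Ms4a6c and Ms4a6d had their highest levels in the 24 h M1 library, with 1 library per state and so no test. Levels are given as CPM, the UMIs of a gene scaled to the total of its library. At 24 h Ms4a4c had 1216 CPM in M1 (95% exact Poisson interval 1190 to 1242), 7.59 in M2 (5.78 to 9.79) and 6.29 in M0 (4.40 to 8.71). The 59 UMIs of M2 came from 12 barcodes, with up to 11 in 1, and the 36 of M0 from 31. UMIs of 1 barcode are not independent, so the M2 interval is too narrow. In bulk RNA Ms4a4c was lower in 24 h M2 than in 24 h M0. Ms4a6d had 1402 in M1, 160 in M2 and 212 in M0, Ms4a6c 1097, 84.2 and 372 in that order of states, and Ms4a6b 597, 10.7 and 151. Ms4a7 had 1199 in M1 (1174 to 1225), 389 in M2 and 1521 in M0 (1489 to 1553). All intervals cover counting error only.

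**Figure D3:**
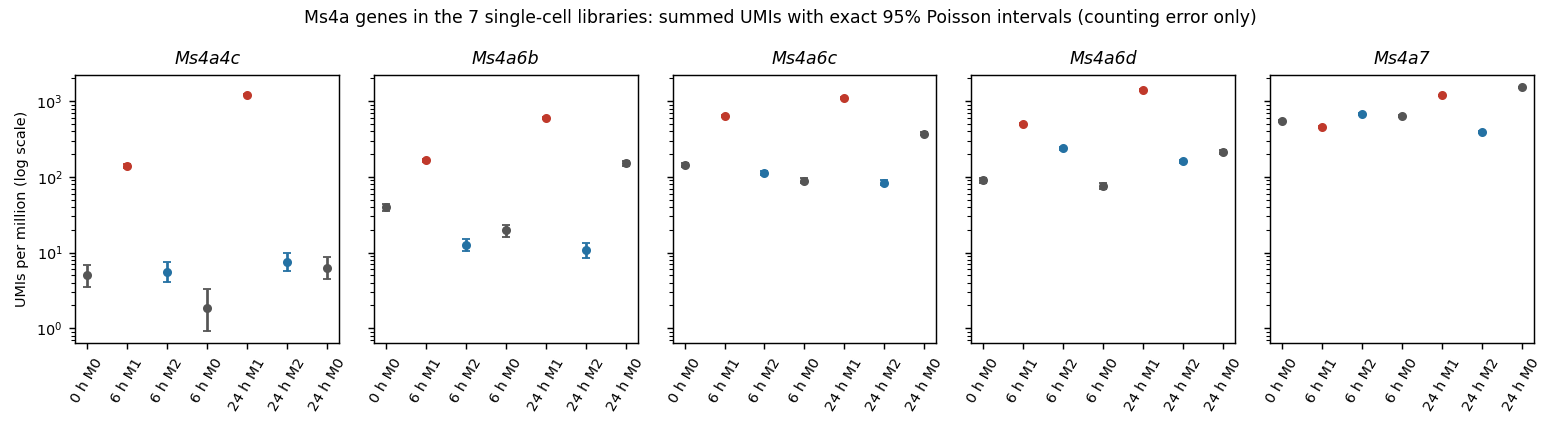
CPM (UMIs scaled to the library total) of the 5 members in the 7 single-cell libraries, on a log axis, with 95% exact Poisson intervals as bars. Ms4a4c reached 1216 CPM in 24 h M1 and lay between 1.83 and 7.59 in the M2 and M0 libraries.

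At 6 h the order of the members differed. In the M1 library Ms4a6c was the highest of the 4 genes that M1 raised, at 631 CPM, against 112 in M2 and 89.5 in M0, followed by Ms4a6d (502, 238 and 75.2), Ms4a6b (165, 12.7 and 19.6) and Ms4a4c (141, 5.56 and 1.83). Ms4a6d was higher in the 6 h M2 library than in the 6 h M0 library, and Ms4a7 had 463 in M1, 682 in M2 and 630 in M0. At 0 h Ms4a7 was the most abundant member, at 540 CPM, and Ms4a4c the least, at 5.02.

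Most barcodes of 24 h M1 held these transcripts. A Ms4a4c UMI was found in 73.4% of 2842 barcodes of 24 h M1, 0.410% of 2924 of 24 h M2 and 1.14% of 2727 of 24 h M0. Median depths were 2056, 2296 and 1751 UMIs, and after thinning each barcode to 500 UMIs the shares were 35.7%, 0.103% and 0.183%. For Ms4a6b the thinned shares were 19.1% in M1, 0.684% in M2 and 5.61% in M0, for Ms4a6c 37.3%, 3.66% and 15.4%, and for Ms4a6d 39.2%, 6.67% and 7.81%. Ms4a7 was found in 39.1% of thinned M1 barcodes, 15.0% of M2 and 47.4% of M0.

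Of the 24 h M1 barcodes 38.5% held a UMI of each of Ms4a4c, Ms4a6b, Ms4a6c and Ms4a6d and 5.31% of none of them, against 0.103% and 65.0% in 24 h M2 and 0.293% and 42.2% in 24 h M0. At 6 h of M1, 6.96% held all 4 and 20.4% none. No library held 50 barcodes with at least 3 fibroblast markers. Barcodes of other types that should lack these genes were not counted, so the share that free RNA gives was not measured. Pairs of libraries shared 6 to 25 barcode sequences, 0.221% to 1.02% of the smaller library.

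A small group of 6 h M1 barcodes held a UMI of Ccr7, the homing receptor of cells bound for lymph nodes. Among these 79 barcodes Ms4a4c was found in 43.0%, against 17.9% of the 3169 without Ccr7, with median depths of 2824 and 2206 UMIs. After thinning the shares were 18.99% and 4.70%, and the levels 599 and 127 CPM. Ms4a7 went the other way, at 6.33% against 17.5% after thinning, while Ms4a6c (27.8% against 22.9%), Ms4a6b (7.59% against 6.34%) and Ms4a6d (15.2% against 16.3%) lay closer together. Barcodes of 1 library are not replicates, and these are descriptions of it.

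Barcodes with at least 3 cycling genes were deeper than the rest. Of 30 pairs of a member and a library, the share with a UMI was higher among cycling barcodes in 23 before thinning and in 9 after it. Ms4a7 was lower among cycling barcodes after thinning in each of the 6 libraries with such a subset, for example 36.8% of 467 against 49.6% of 2260 in 24 h M0 and 9.35% of 770 against 17.0% of 2154 in 24 h M2. The other family members were rare, at 1.26 to 10.5 CPM for Ms4a14, 0.17 to 6.04 for Ms4a4b and 0 to 3.84 for Ms4a4a over the 7 libraries. Tmem176b had 9.84 in 24 h M1, 105 in 24 h M2 and 261 in 24 h M0.

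Chromatin across the cluster was more open in 24 h M1 than in 0 h M0. The only M0 libraries of ATAC-seq were taken at 0 h. In differences of M1 or M1→M0 from M0, treatment, time in culture and loss of other marrow cells therefore cannot be told apart. Counts were tested with edgeR for the 52 of 54 sites that passed the filter, and in 24 h M1 against 0 h M0 26 gained and 1 lost accessibility, where 16.6% of all sites gained and 14.3% lost. The median change was 0.73 on the log2 scale in these windows and -0.07 over all sites. By nearest member, 11 of 11 sites gained around Ms4a6b, 3 of 5 tested around Ms4a6c, 6 of 14 around Ms4a6d, 3 of 9 around Ms4a4c and 3 of 13 around Ms4a7. The windows overlap, so a site near one member also lies within reach of others.

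**Figure D4:**
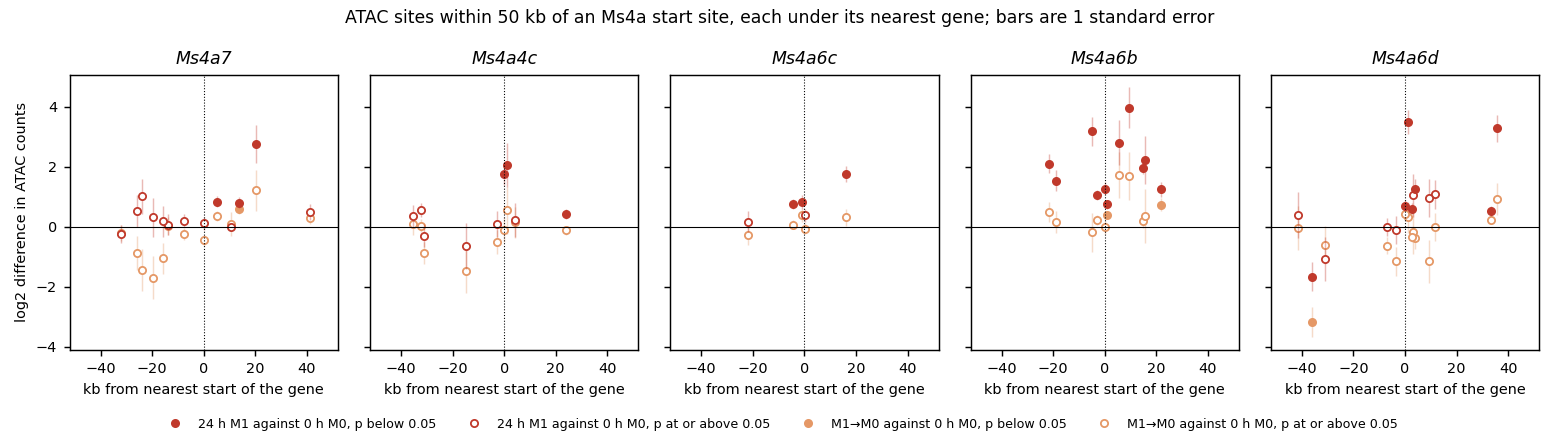
Change in accessibility at sites around each member, as log2 difference against distance from the nearest start in kb, for 24 h M1 against 0 h M0 and for M1→M0 at 72 h against 0 h M0. Filled points passed an adjusted p of 0.05 and bars are 1 SE. In 24 h M1 26 of 52 tested sites gained, and in M1→M0 3 did.

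At the starts themselves the members differed. Values are normalized counts per library, and 7 sites lay within 1 kb of a start. The site at the Ms4a4c start (chr19:11407451-11407801) had 10.6, 8.84 and 11.8 counts in M1→M0, 41.0, 37.5 and 35.7 in 24 h M1, and 16.1, 7.79 and 7.54 in 0 h M0. M1 stood above both other groups in every library, by 1.77 over M0 (SE 0.37, adjusted p = 0.00011), and M1→M0 was at -1.87 from M1 (adjusted p = 9.7e-05).

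The Ms4a6b start (chr19:11518302-11519191), which holds the promoter shown above, had 40.8, 38.9 and 30.6 counts in M1→M0, 56.6, 108 and 96.5 in 24 h M1, and 41.3, 27.3 and 40.2 in 0 h M0. It gained 1.27 in M1 (SE 0.21, adjusted p = 1.2e-06) without overlap, and M1→M0 overlapped M0 (-0.02, adjusted p = 0.97). The Ms4a6d start (chr19:11604442-11605200) had 59.7, 68.9 and 63.2 counts in M1→M0, 66.3, 80.7 and 89.3 in 24 h M1, and 47.1, 49.4 and 46.9 in 0 h M0. Its gain in M1 was 0.71 (SE 0.19, adjusted p = 0.0026), and M1→M0 stood above every M0 library without passing the test (0.42, adjusted p = 0.084).

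The Ms4a6c start (chr19:11469263-11469907) had 58.2, 49.5 and 40.5 counts in M1→M0, 64.4, 79.1 and 39.3 in 24 h M1, and 65.2, 44.2 and 41.9 in 0 h M0. The groups overlapped and it was not called (0.39, SE 0.21, adjusted p = 0.15), but it was without replicate 1 of 0 h M0 (0.66, adjusted p = 0.042). A site whose centre lay at position -779 from that start (chr19:11468346-11468828) had 48.3, 52.1 and 36.5 counts in M1→M0, 62.4, 64.4 and 57.2 in M1, and 41.9, 31.2 and 30.2 in M0, and gained 0.83 (SE 0.23, adjusted p = 0.0029).

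The Ms4a7 start (chr19:11335782-11336411) had 56.7, 38.0 and 34.6 counts in M1→M0, 64.4, 60.3 and 78.6 in 24 h M1, and 60.01, 58.5 and 60.3 in 0 h M0. It did not pass the test in M1 (0.11, SE 0.20, adjusted p = 0.70), and it was lower in M1→M0 than in M1 (-0.56, SE 0.21, adjusted p = 0.045). That call was lost under DESeq2 (-0.58) and in 5 of the 6 fits without 1 of these libraries (-0.43 without replicate 3 of M1→M0, -0.47 without replicate 2, and -0.56, -0.67 and -0.47 without replicate 1, 2 and 3 of 24 h M1). Without replicate 1 of M1→M0 its difference from 0 h M0 was called as well (-0.71, adjusted p = 0.026).

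**Figure D5:**
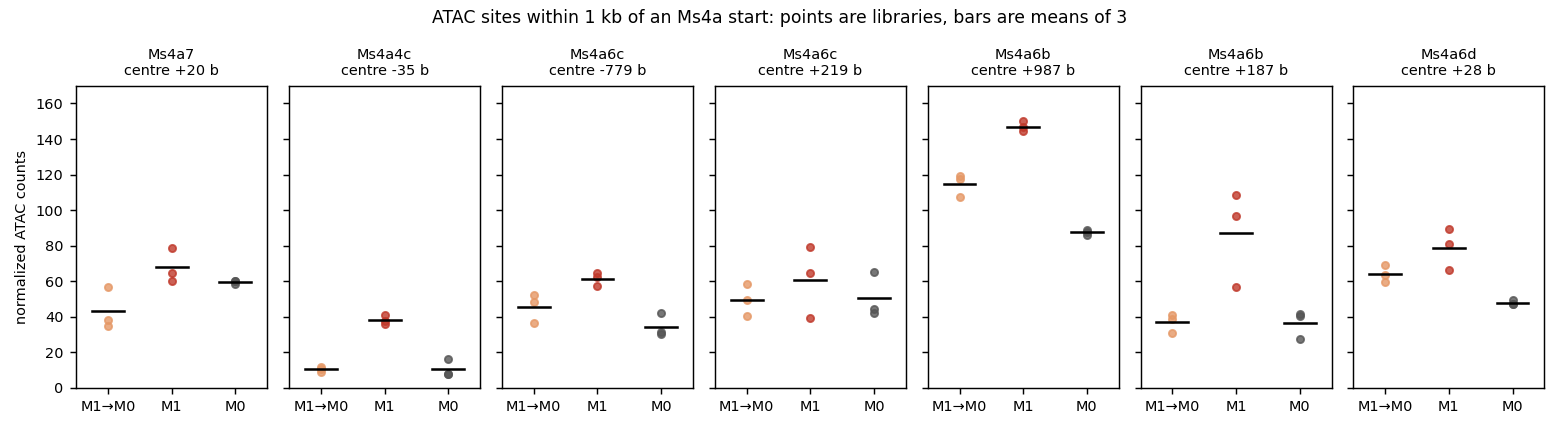
Normalized ATAC-seq counts at the 7 sites within 1 kb of a member's start, in M1→M0 at 72 h, 24 h M1 and 0 h M0. Points are libraries and bars are means of 3. At the Ms4a4c start the 24 h M1 libraries sit between 35.7 and 41.0 counts, above all libraries of the other groups.

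Some sites inside and between the genes gained more in M1 than any start of a member did. The start of Ms4a14, also in these windows, gained 2.76 (SE 0.63, adjusted p = 0.00032) at low counts. It had 11.7, 28.5 and 10.7 counts in 24 h M1 and 4.52, 0 and 2.51 in 0 h M0. The site with the highest fitted gain, in an exon of Ms4a6b (chr19:11527703-11528035), had 6.04, 4.42 and 3.95 counts in M1→M0, 17.6, 27.7 and 25.0 in 24 h M1, and 1.94, 0 and 1.68 in 0 h M0 (3.97, SE 0.68, adjusted p = 3e-06). An intronic site of Ms4a6d (chr19:11591853-11592258) had 5.29, 6.19 and 9.87 counts in M1→M0, 54.6, 63.6 and 75.0 in 24 h M1, and 1.29, 7.79 and 9.21 in 0 h M0. It gained 3.49 in M1 (SE 0.39, adjusted p = 1.6e-11) and was at -3.16 in M1→M0 from M1 (adjusted p = 2.6e-10), when it overlapped M0. Downstream of Ms4a6b, an intergenic site (chr19:11532868-11533789) had 39.3, 32.7 and 25.7 counts in M1→M0, 101, 128 and 96.5 in M1, and 23.2, 33.8 and 32.7 in M0 (1.97, SE 0.21, adjusted p = 9.9e-13).

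After the wash most of the gain was gone. In M1→M0 at 72 h against 24 h M1, 21 of the 52 sites fell, where 10.2% of all sites rose and 11.8% fell, and 17 of the 26 sites gained in M1 were among them. Those 26 were picked on the same 24 h M1 libraries, which by itself favours a fall. The share of gained sites that fell was not taken over all sites, so the 17 are a description. The median was -0.82 in these windows and 0.03 over all sites. Against 0 h M0, 3 sites were higher and 1 lower in M1→M0, where 10.1% and 8.53% of all sites were, with a median of 0.01. Without replicate 3 of 0 h M0 only the lower one was called, and without replicate 2 of 24 h M1 the 21 were 13. Replicate 3 of 24 h M1 was the shallowest library, with 1730488 counts, where the deepest had 9354620.

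The 3 sites still higher lay in an exon of Ms4a7 (chr19:11320905-11321553, 0.58, adjusted p = 0.0067), in an intron of Ms4a6b (chr19:11517114-11517884, 0.39, adjusted p = 0.030) and in an intron of Ms4a4d (chr19:11539933-11540858, 0.75, adjusted p = 0.013). The Ms4a6b site had 119, 118 and 108 counts in M1→M0, 144, 150 and 146 in M1, and 87.8, 85.7 and 88.8 in M0, with no overlap between the groups. Its call in M1→M0 was lost under DESeq2 and without any of 5 of the 6 libraries, each replicate of 0 h M0 (0.40, 0.38 and 0.39) and replicates 1 and 2 of M1→M0 (0.36 and 0.38). The 1 lower site was the start of Ms4a3, a gene of granulocyte and monocyte progenitors (chr19:11640677-11641111), with 6.04, 0 and 1.97 counts in M1→M0, 7.80, 8.97 and 7.15 in 24 h M1, and 31.6, 24.7 and 22.6 in 0 h M0 (-1.66 in M1, adjusted p = 0.0053, and -3.17 in M1→M0, adjusted p = 1.5e-06).

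Some sites that opened in M1 are copies of one another and carry the same letters. Of the 54 sites, 25 fell into 9 groups that aligned over at least 150 bases at 80% identity or more. A group of 3, in introns of Ms4a4c, Gm8369 and Ms4a4d, gained in M1 at all 3 copies (2.05, 2.11 and 1.25) and is shown for its ISRE cores, in capitals as above, read from GRCm38 at chr19:11408740-11408828 on the minus strand, chr19:11494699-11494787 and chr19:11540308-11540396.
Ms4a4c intron: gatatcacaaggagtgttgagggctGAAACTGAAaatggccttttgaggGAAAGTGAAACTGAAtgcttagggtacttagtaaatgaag
Gm8369 intron: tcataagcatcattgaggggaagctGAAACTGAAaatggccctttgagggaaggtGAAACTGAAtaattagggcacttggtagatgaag
Ms4a4d intron: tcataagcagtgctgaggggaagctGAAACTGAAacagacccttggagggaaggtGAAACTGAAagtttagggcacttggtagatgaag
The copies were 82.9% to 85.9% identical. The Gm8369 copy (site chr19:11494347-11495090) had 19.6, 13.3 and 19.7 counts in M1→M0, 54.6, 57.9 and 42.9 in 24 h M1, and 13.6, 7.79 and 14.2 in 0 h M0, and M1 stood above both. The Ms4a4d copy had 58.9, 55.7 and 47.4 counts in M1→M0, 81.9, 82.4 and 53.6 in M1, and 43.2, 42.9 and 11.7 in M0. At the Ms4a4c copy the groups overlapped, since replicate 3 of 24 h M1 had no count there.

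A group of 5 copies, 80.7% to 95.8% identical, gained at 4 of them, by 0.43 to 1.05, and the copy upstream of Ms4a6b gained most (1.05, SE 0.17, adjusted p = 1e-06). Reads from identical stretches may be counted at either copy, which was not tested.

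In the central 300 bases of the sites, the ISRE core was in 6 of the 26 that gained in M1 (23.1%) and in 2 of the 25 not called (8%), against 11.8% of all sites and 17.8% of all that gained. The GAS type was in 7 of the 26 (26.9%) and 1 of the 25 (4%), against 8.94% of all sites and 10.2% of all that gained. Several of these sites are copies, so the counts are not of independent sequences.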

How the data were processed

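Bulk RNA, single-cell RNA and ATAC-seq files of mouse macrophages were used as deposited. Bulk RNA reads were mapped to build mm10 by the authors (TopHat 2.0.14) and quantified as FPKM (Cuffnorm 2.2.2). The deposited matrix holds log10(FPKM + 1) of 145 libraries, for genes reaching at least 10 FPKM in 1 library. The deposited ATAC-seq table gives read counts per merged MACS2 2.1.0 peak, made with bedtools 2.28.0 once duplicates had been removed. For single cells the deposited values are UMI counts from Cell Ranger, whose version is not given in the sources used here.

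Log10 values were turned back to FPKM and fitted as log2(FPKM + 1) in limma 3.58.1 (R 4.3.3), using 1 mean per condition (48) and a trend of variance on mean. P-values are two-sided and adjusted (Benjamini-Hochberg) over 8307 genes. ATAC tests used the quasi-likelihood F-test of edgeR 4.0.16 with TMM scaling. They covered the 133850 sites with over 10 normalized counts, and DESeq2 1.42.0 was an alternative. Site starts were read as counted from 0 and are printed counted from 1. Library totals were 354027 to 710082 summed FPKM and 1730488 to 9354620 ATAC counts.

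Members, gene lists and the comparisons named as added were chosen with earlier results of these data known. All 5 members were named. Start sites came from GENCODE vM21 and promoters from RefSeq (GRCm38.p6), which has an entry for 4 of the 5. Single cells were handled in Python 3.11.15 with numpy 2.4.6 and scipy 1.17.1, without calling doublets or cell types, and 22881 barcodes were used. Alignments used Biopython 1.88.

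Replicate numbers were checked as pairs. Same-numbered libraries deviated together (every correlation over 0.1) in 8 of 12 bulk comparisons, with no source saying what a number marks, and not in ATAC-seq.

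Tested on simulated data (24 h M1 against 24 h M0, 8307 genes), the bulk model recovered 60% of changes of 0.585 (log2), 88% of changes of 1, 98% of changes of 2 and 100% of changes of 3. It made 13 false calls. The ATAC-seq model found 22% of sites changed by 1 and 86% changed by 2, with 7 false calls among 20000 sites, so small changes at single sites are often missed.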

Additional observations from a re-analysis of the deposited data

Results flagged for a closer look

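The M1 effect on Ms4a4c was smaller at 96 h than at 24 h. M1 exceeded time-matched M0 by 5.28 on the log2 scale at 96 h and by 7.27 at 24 h, and the test of the difference by limma gave -1.98 (SE 0.41, adjusted p = 9e-05). Ms4a6d showed the same, with 2.27 at 96 h and 3.05 at 24 h, a difference of -0.78 (SE 0.20, adjusted p = 0.0013). Of all 8307 genes, 2294 passed that test. For Ms4a6b, Ms4a6c and Ms4a7 the differences of -0.18, -0.46 and 0.18 did not pass. The added 1 FPKM compresses the 96 h value of Ms4a4c more than its 24 h value. Ms4a4c had 0.822 to 1.39 FPKM in 96 h M0 and 2.70 to 6.96 FPKM in 24 h M0. This test was not repeated with another added value, so the size of its -1.98 is uncertain.

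One library of M2→M1 at 4 h after the wash stood far from the other 3 for Ms4a6d, at 280 FPKM, against 201, 203 and 210 FPKM (Dixon ratio 0.876). About 1 group in 20 is marked this way by chance.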

How the results depend on the processing

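No result reversed. Of 215 alternative fits of the bulk counts of called members 199 kept the count within 1.5 times, as did 27 of 33 for ATAC-seq, and of 805 fits of single members in bulk 770 kept their call. Of 105 single-cell values of a member in a library under other settings 62 lay outside the counting interval and 43 within it, and 4 of 5 members were highest in 24 h M1 in each of those settings. In M1→M0 at 72 h against 96 h M0, 4 members were called without the libraries numbered 1 in every condition (an alternative added after seeing the data), in place of 2. In M2→M1 at 72 h against 96 h M1 the 2 became 4 without those libraries, 0 in a fit of the 2 groups alone, and 1 to 4 without 1 library. In 96 h M0 against 0 h M0 the 1 became 2 with the replicate block, with the median of each library subtracted, without the libraries numbered 1 and in the 2 groups alone, each by adding Ms4a7. In M2→M1 at 24 h against 24 h M1 the 1 became 0 without the libraries numbered 1 and in the 2 groups alone, and 0 to 1 without 1 library. The M2→M0 course gave 8 to 19 calls without 1 replicate number, against 16.

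The replicate block changed no other count by over 1.5 times: 4, 4, 5 and 5 members were called with it in the first 4 comparisons described (M1 and M2 against M0, M1 against M2, M1→M0 against 96 h M1), and 24, 4 and 17 ATAC-seq sites. The 10 FPKM filter kept all genes. In ATAC-seq a 10 kb window held 15, 1 and 12 called sites for M1 against M0, M1→M0 against M0 and M1→M0 against M1, in place of 27, 4 and 21, since it holds fewer sites. DESeq2 called 1 site in M1→M0 against 0 h M0, and without 1 library that comparison gave 1 to 4 and M1→M0 against M1 13 to 24. In single cells 9 of 30 pairs were higher among cycling barcodes after thinning and 14 by CPM, in place of 23. Except where a cause is given, the cause was not tested. Depth limits Ms4a4c where it is near or below 1 FPKM, as in 24 h M2 and 96 h M0, and single sites in the shallowest ATAC-seq library.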
